A study of Mus musculus with 15 samples.

Results

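Trbv16, listed as TCRBV16-01 in the deposited files, is a variable (V) gene segment of the mouse T cell receptor (TCR) β locus and encodes the chain family known as Vβ11. Its members here are all rearrangements to which this V gene was assigned, 2015 of 29992 over 15 samples. Of these, 1276 of 18625 were productive (in frame with no stop codon) and 739 of 11367 were non-productive, and both kinds were kept apart. The gene was selected on its measured template shares, which were already known, so its shares below are a description without a test.

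The DNA came from CD8+ T cells positive for PD-1 and CD44, isolated by cell sorting from 5 control C57BL/6 mice that received no treatment, and their TCR β rearrangements were read with the immunoSEQ assay. Every mouse carried B16F10GP, a B16F10 melanoma line expressing the LCMV glycoprotein, on both flanks, with tumor 1 implanted before tumor 2. From each mouse the tumor-draining lymph node (TdLN) of the tumor 1 side, tumor 1 and tumor 2 were taken, 5 samples per tissue. No treated animals and no mice without tumors enter any comparison, and the sort limits the data to activated cells with PD-1. Productive templates, the assay's estimate of genomes carrying a rearrangement, ranged from 3254 to 9105 in the TdLN, from 3601 to 6137 in tumor 1 and from 238 to 3975 in tumor 2, where mouse 4 was the shallowest. The TdLN of mice 4 and 5 each held 5722 unique productive rearrangements against 1290 to 1631 in mice 1 to 3, whose samples also carry another style of name.

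A TCR β chain is built by joining a V, a D and a J segment, with bases trimmed from the segment ends and non-templated (N) bases added between them. The junction encodes CDR3, the loop that mostly contacts the peptide, which runs from a conserved cysteine at the end of V to a phenylalanine of J. Vβ11+ T cells are known for their deletion in mice that express I-E together with certain endogenous mammary tumor virus superantigens, and C57BL/6 mice lack I-E.

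On GRCm38, Trbv16 lies on chromosome 6 at 41151740-41152230 on the plus strand, between Trbv15 and Trbv17, and its second exon at 41151933-41152230 holds the part that is sequenced. Of the sequences shown, the germline end of that exon (chr6:41152161-41152230) is followed by the rearrangements on which the results below turn, each an 87-base read that ends just before the phenylalanine codon of J. Capitals mark the bases from the cysteine codon on in the germline and the bases counted as CDR3 in the reads.
Trbv16 germline end: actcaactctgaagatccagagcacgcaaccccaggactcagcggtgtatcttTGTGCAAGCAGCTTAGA
GSYEQYF: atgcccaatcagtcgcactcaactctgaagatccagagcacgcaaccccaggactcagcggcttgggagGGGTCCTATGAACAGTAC
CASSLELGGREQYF of mouse 2: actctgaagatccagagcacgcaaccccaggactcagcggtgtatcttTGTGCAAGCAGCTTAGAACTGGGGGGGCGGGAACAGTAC
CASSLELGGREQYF of mouse 3: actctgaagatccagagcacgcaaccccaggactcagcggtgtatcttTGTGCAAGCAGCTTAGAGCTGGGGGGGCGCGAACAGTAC
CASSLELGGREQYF of mice 4 and 5: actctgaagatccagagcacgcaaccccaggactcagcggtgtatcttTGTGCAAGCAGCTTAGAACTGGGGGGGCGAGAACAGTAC
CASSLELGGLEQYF: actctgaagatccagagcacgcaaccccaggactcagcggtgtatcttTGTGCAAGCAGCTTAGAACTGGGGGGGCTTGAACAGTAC
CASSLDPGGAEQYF: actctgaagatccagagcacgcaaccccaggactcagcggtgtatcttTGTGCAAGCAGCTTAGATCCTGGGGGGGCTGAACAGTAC
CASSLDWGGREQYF: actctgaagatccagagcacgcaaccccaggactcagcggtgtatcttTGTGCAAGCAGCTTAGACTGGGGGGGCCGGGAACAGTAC
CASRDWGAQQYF: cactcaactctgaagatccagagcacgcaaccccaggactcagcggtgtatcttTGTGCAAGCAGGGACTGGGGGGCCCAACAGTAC
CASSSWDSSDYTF: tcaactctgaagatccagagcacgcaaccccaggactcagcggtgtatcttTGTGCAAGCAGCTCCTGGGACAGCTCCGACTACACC
Trbj1-3, out of frame: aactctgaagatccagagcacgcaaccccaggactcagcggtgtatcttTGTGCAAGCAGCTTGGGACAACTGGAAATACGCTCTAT

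Some samples of different mice held identical Trbv16 nucleotide sequences, and this bears on every result that follows. Of 1190 distinct productive Trbv16 rearrangements, 21 were found in more than 1 mouse, as were 21 of 648 non-productive ones. Among the 90 pairs of samples from different mice, 17 shared at least 1 productive Trbv16 rearrangement, and among the 15 pairs from the same mouse 13 did. Tumor 2 of mouse 1 and tumor 2 of mouse 2 shared 7, more than any other pair of different mice, and over all V genes these samples shared 143 productive rearrangements against 93 between tumor 1 and tumor 2 of mouse 1. Productive Trbv16 rearrangements found in another mouse held between 4.82% and 98.0% of the Trbv16 templates of tumor 1 (median 36.4%) and between 23.6% and 98.4% of those of tumor 2 (median 89.7%). The other V genes also held such sequences, with medians of 78.1% in tumor 1 and 87.5% in tumor 2. Where these shared sequences came from was not tested, and the files do not show whether samples or their DNA were mixed or mislabelled. A mouse, its own TdLN and a count of mice below therefore mean samples with the same number in the labels.

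Trbv16 took a like share of the unique productive rearrangements in every TdLN. It held 7.13%, 6.87%, 6.05%, 6.34% and 7.27% in mice 1 to 5, with a mean of 6.73% ± 0.52 (SD, n = 5). In tumor 1 the values were 14.7%, 3.42%, 8.74%, 7.10% and 6.23%, with a mean of 8.04% ± 4.19 (SD, n = 5). In tumor 2 they were 8.16%, 6.35%, 2.06%, 12% and 7.59%, with a mean of 7.23% ± 3.58 (SD, n = 5). The tissues overlapped, and the spread between mice was several times wider in the tumors, which held 4 to 42 unique productive Trbv16 rearrangements per sample against 78 to 416 in the TdLN. The highest tumor value, 36 of 245 rearrangements in tumor 1 of mouse 1, had a 95% Wilson interval of 10.8% to 19.7%, and the value of 6 of 50 in tumor 2 of mouse 4 an interval of 5.62% to 23.8%. Removing rearrangements found in another mouse gave means of 6.76%, 7.98% and 7.45% for the TdLN, tumor 1 and tumor 2.

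By mean share of unique productive rearrangements, Trbv16 was the fifth of the V genes in the TdLN, behind Trbv3 at 6.87% ± 0.47 and ahead of Trbv13-1 at 6.25% ± 0.25 (SD, n = 5), and its difference from each was within its own SD of 0.52. In tumor 1 it ranked 4, between Trbv5 at 8.42% ± 1.88 and Trbv13-2 at 7.30% ± 1.59. In tumor 2 it ranked 3, between Trbv5 at 8.03% ± 2.46 and Trbv13-1 at 7.22% ± 1.36. None of these neighbours stood apart from Trbv16 by more than the spread between mice. Over the 15 samples the V genes whose shares were most like that of Trbv16 were Trbv31 (Pearson r = 0.66), Trbv5 (r = 0.26) and Trbv13-3 (r = 0.18), and the least like was Trbv24 (r = -0.48), among 19 V genes compared. The samples share mice and differ in depth, and shares of a sample sum to the same total, so these correlations are a description.

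Counted by templates, the share of Trbv16 was far less even. It was 15.2%, 7.34%, 6.35%, 6.60% and 7.46% in the TdLN of mice 1 to 5, 49.8%, 0.79%, 4.18%, 18.0% and 3.17% in tumor 1, and 35.4%, 9.81%, 0.18%, 12.2% and 6.96% in tumor 2. Mouse 1 was highest in each of the 3 tissues, with 3059 of 6137 productive templates of tumor 1. Mean shares were 8.58% ± 3.71 for the TdLN, 15.2% ± 20.5 for tumor 1 and 12.9% ± 13.4 for tumor 2 (SD, n = 5). Without mouse 1 they were 6.94% ± 0.55, 6.53% ± 7.78 and 7.28% ± 5.19 (SD, n = 4). Removing rearrangements found in another mouse gave 6.99%, 6.42% and 5.26%.

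**Figure D1:**
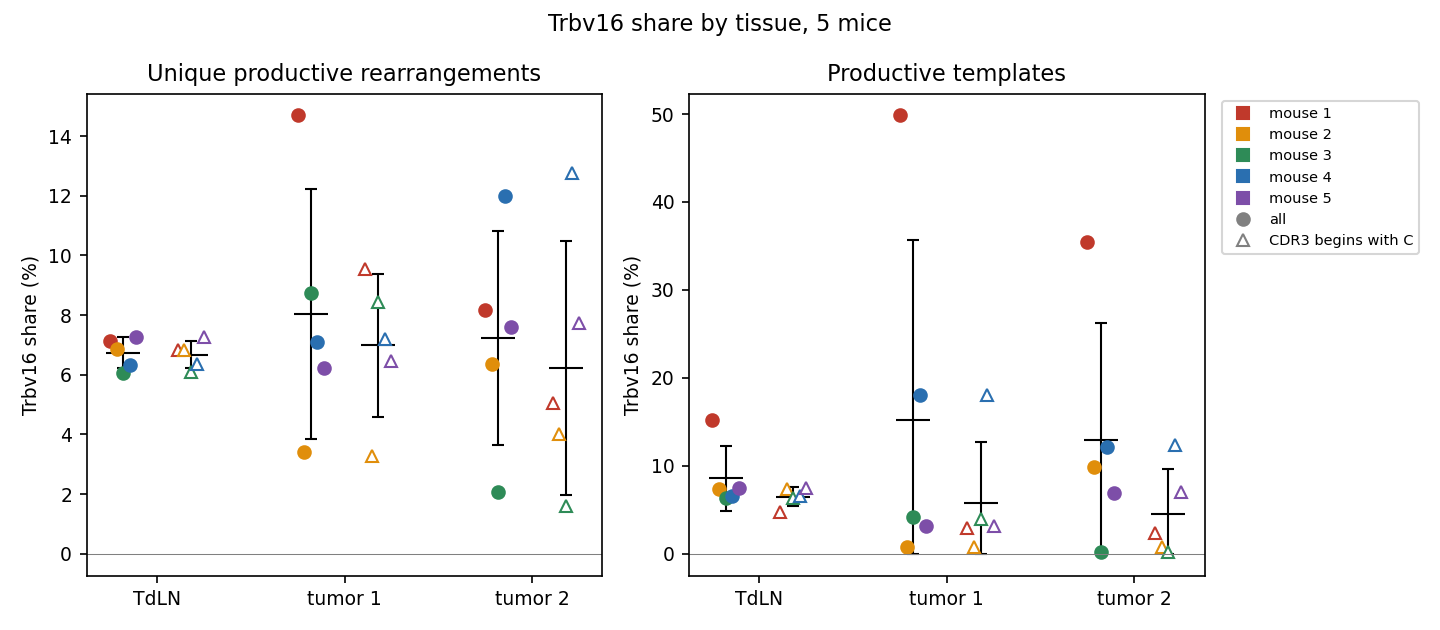
Share of Trbv16 (%) among unique productive rearrangements (left) and productive templates (right) in the TdLN, tumor 1 and tumor 2, with a point per mouse coloured by mouse and black bars for the mean and SD over 5 mice, drawn no lower than 0. Filled circles are all productive rearrangements and open triangles those whose CDR3 begins with C. In tumor 1 of mouse 1 the template share is 49.8% for all and 2.97% for CDR3s that begin with C.

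A single rearrangement to Trbj2-7, read as the 7-residue CDR3 GSYEQYF, made up most of the Trbv16 templates of mouse 1. It is listed as productive although it lacks the conserved cysteine. Its V part matches chr6:41152145-41152205 of GRCm38 and ends 8 bases before the cysteine codon at 41152214-41152216, with 25 bases trimmed from the V end. Its J part matches chr6:41543811-41543825 within Trbj2-7, and 11 bases lie between them. It held 409 of 3779 productive templates in the TdLN of mouse 1 (10.8%, 95% interval 9.87% to 11.9%), 2948 of 6137 in tumor 1 (48.0%, 46.8% to 49.3%) and 1335 of 3975 in tumor 2 (33.6%, 32.1% to 35.1%). The same 87 bases were also listed with 298 of 3364 productive templates in tumor 2 of mouse 2 (8.86%) and 8 of 3974 in tumor 1 of mouse 3 (0.20%), and in no other sample. It accounted for 71.4%, 96.4% and 94.7% of the productive Trbv16 templates of the TdLN, tumor 1 and tumor 2 of mouse 1 and for 90.3% of those of tumor 2 of mouse 2.

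Around this rearrangement lay many small near copies, defined as sequences within 4 edits of a rearrangement with at least 50 times as many templates in the same sample. There were 10 of them in the TdLN of mouse 1, 36 in tumor 1, 26 in tumor 2 and 10 in tumor 2 of mouse 2, all assigned to Trbv16 and none with more than 3 templates. Of the near copies that were listed in all 4 samples, the one with most templates, 9 in all, lies 2 edits away and is out of frame.
Near copy of GSYEQYF: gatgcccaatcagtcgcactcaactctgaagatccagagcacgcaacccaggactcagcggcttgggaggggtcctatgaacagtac
Over all mice, near copies made up 25 of 109 productive Trbv16 rearrangements of tumor 1 (22.9%) and 17 of 102 of tumor 2 (16.7%), against 5 of 1065 in the TdLN (0.47%). For all V genes the shares were 11.0%, 8.66% and 0.22%. Among non-productive Trbv16 rearrangements they were 39.1% in tumor 1, 26.7% in tumor 2 and 1.86% in the TdLN. A near copy needs, by definition, a rearrangement with at least 50 templates in its sample. In the TdLN of mice 4 and 5, near copies were 0 of 5722 productive rearrangements each. The difference between tissues can therefore not be told apart from the size of their largest rearrangements. Near copies hold few templates but count as unique rearrangements, so they enter every unique share. Without them, the share of tumor 1 of mouse 1 was 10.3% in place of 14.7%, and the means were 6.69% ± 0.51 for the TdLN, 6.92% ± 2.48 for tumor 1 and 6.55% ± 3.75 for tumor 2 (SD, n = 5).

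Leaving out every productive rearrangement whose CDR3 does not begin with C changed the template shares of mouse 1 most. Trbv16 then held 2.97% of productive templates in tumor 1 of mouse 1 and 2.40% in tumor 2, and 0.75% in tumor 2 of mouse 2. Mean template shares became 6.50% ± 1.09 for the TdLN, 5.79% ± 6.95 for tumor 1 and 4.54% ± 5.14 for tumor 2 (SD, n = 5), and tumor 1 of mouse 4 was then highest among tumor 1 samples with 18.0%. The unique shares moved less, to 6.67% ± 0.46, 6.98% ± 2.38 and 6.23% ± 4.26 (SD, n = 5).

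Non-productive rearrangements, which encode no receptor chain, gave Trbv16 a similar share in the TdLN, 6.35% ± 0.79 of unique non-productive rearrangements (SD, n = 5). The shares were 9.26% ± 5.45 in tumor 1 and 8.94% ± 4.89 in tumor 2, and without near copies 7.28% ± 2.42 and 7.76% ± 5.23 (SD, n = 5). The highest tumor 1 value, 17.6% in mouse 1, was 8.61% without near copies. Of the 739 non-productive members, the one with most templates is the out-of-frame joining to Trbj1-3 printed above, which was listed in tumor 2 only, with 63 templates in mouse 1, 26 in mouse 2 and 102 in mouse 3.

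In the TdLN, where each mouse held at least 78 unique productive Trbv16 rearrangements, the junctions of Trbv16 were compared with those of all other V genes together. The values for Trbv16 and for the others were compared with a two-sided exact permutation test (5 against 5 values, smallest p 0.00794). The test is unpaired although each mouse gave a value to both sides, and limma with the mouse as a block was an alternative. The same test was run for each of the 20 V genes with a mean TdLN share of at least 1%, with Benjamini-Hochberg adjustment over them. None of the 5 junction measures was called for Trbv16 at an adjusted p under 0.05, nor was any without rearrangements found in another mouse, where V end trimming differed by 0.39 bases and CDR3 length by 0.23 bases.

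CDR3 length, counted in bases from the cysteine to the phenylalanine, averaged 42.2, 42.4, 42.7, 41.9 and 41.7 bases for Trbv16 in mice 1 to 5. The mean of 42.18 ± 0.37 bases exceeded that of the other V genes, 42.04 ± 0.23, by 0.14 ± 0.33 (SD, n = 5, exact permutation test, adjusted p = 0.615), and was higher in 3 of 5 mice. Trbv16 thus ranked 6 of 20 V genes, next to Trbv12-1 at 42.15 and Trbv12-2 at 42.11 bases, between Trbv2 as the longest (44.7) and Trbv20 as the shortest (39.1). The test called 8 of the 20 V genes (40%), so the V genes did vary in length while Trbv16 lay near the middle.

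N insertions averaged 3.50 ± 0.46 bases per Trbv16 junction against 3.60 ± 0.30 for the other V genes (SD, n = 5), a difference of -0.10 ± 0.28 (exact permutation test, adjusted p = 0.822). The values of mice 1 to 5 were 4.27, 3.40, 3.49, 3.30 and 3.05 bases. The nearest V genes were Trbv5 (3.57) and Trbv13-2 (3.39), the highest Trbv19 (3.95) and the lowest Trbv13-3 (3.19). No V gene was called for this measure (0 of 20, 0%), 1 had an unadjusted p under 0.05, and limma called 4 with the mouse as a block and 0 without it.

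Trimming of the V end came closest to a difference. Trbv16 lost 4.07, 3.09, 2.47, 2.83 and 3.02 bases per junction in mice 1 to 5, a mean of 3.10 ± 0.60 against 2.62 ± 0.16 for the other V genes (SD, n = 5). The difference was 0.48 ± 0.65 bases and Trbv16 was higher in 4 of 5 mice (exact permutation test, adjusted p = 0.0840). Trimming differed from gene to gene for most V genes, as 15 of 20 were called (75%), from Trbv4 with 4.61 bases to Trbv2 with 0.97, and Trbv24 (3.20) and Trbv14 (3.0) lay nearest to Trbv16. Mouse 3 decided the call: without it the difference was 0.68 bases with an adjusted p of 0.0357 by the same exact permutation test. In mouse 1 the value includes GSYEQYF, with 25 bases trimmed, and its near copies. Without CDR3s lacking the cysteine or without near copies the gene was again not called.

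The productive share, the percentage of unique rearrangements that were in frame without a stop codon, was 63.6%, 67.9%, 56.1%, 69.8% and 66.1% for Trbv16 in the TdLN of mice 1 to 5. Its mean of 64.7% ± 5.32 exceeded that of the other V genes, 63.3% ± 2.79, by 1.44 ± 3.21 percentage points (SD, n = 5, exact permutation test, adjusted p = 0.611). Of the 20 V genes, 9 were called (45%), and 15 by limma with the mouse as a block, Trbv16 not among them. Trbv1 (64.6%) and Trbv19 (62.0%) were nearest, and Trbv29 (77.8%) and Trbv24 (30.5%) marked the ends of the range.

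CDR3s that do not begin with C made up 1.32% ± 2.21 of the unique productive Trbv16 rearrangements of the TdLN, against 0.49% ± 0.18 for the other V genes (SD, n = 5), a difference of 0.82 ± 2.08 percentage points (exact permutation test, adjusted p = 0.952). The mean rested on mouse 1 with 5.21%, while mice 2 to 5 had 0.89%, 0%, 0% and 0.48%. Trbv15 was highest with 2.02%, Trbv19 (0.89%) and Trbv20 (0.86%) were nearest, and Trbv2, Trbv3, Trbv24, Trbv26 and Trbv31 had none. The test called 7 of 20 V genes (35%), and limma with the mouse as a block called 0.

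**Figure D2:**
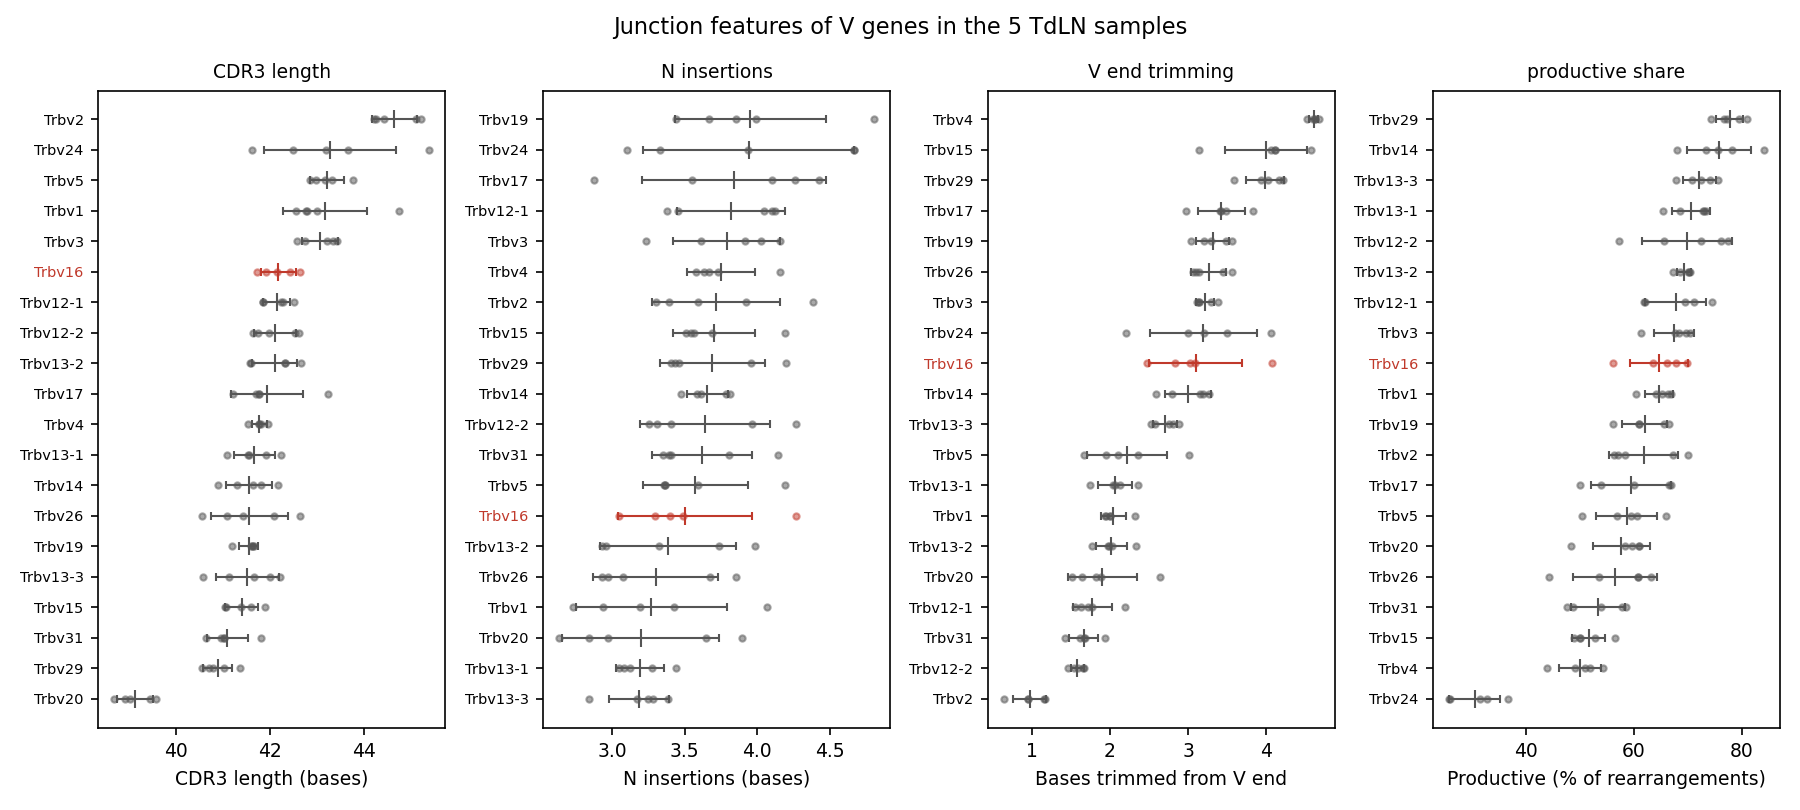
Mean CDR3 length (bases), N insertions (bases), bases trimmed from the V end and productive share (%) of the 20 V genes tested in the TdLN, ordered by mean, with a point per mouse and bars for the mean and SD over 5 mice. Trbv16, in red, lies between the extremes in each panel, for example at 42.18 bases of CDR3 between 39.1 for Trbv20 and 44.7 for Trbv2.

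Every J gene tested was found joined to Trbv16 in the TdLN. Trbj2-7 was the commonest partner, with 21.9%, 18.8%, 34.6%, 23.7% and 24.8% of unique productive Trbv16 rearrangements in mice 1 to 5. The mean was 24.7% ± 5.97 against 21.6% ± 1.01 for the other V genes (SD, n = 5), and the difference of 3.09 ± 6.88 percentage points was within its spread (exact permutation test, adjusted p = 0.657). Trbj2-1 was joined to 10.7% ± 4.65 of Trbv16 against 13% ± 1.18 of the others (adjusted p = 0.775, exact permutation test) and Trbj2-5 to 12.9% ± 1.86 against 11.0% ± 0.73 (adjusted p = 0.296). These have the largest differences of the 12 J genes, and none was called. Over all 240 pairs of a V and a J gene, 0 were called (0%) by the exact test. Of these pairs, 44 had an unadjusted p under 0.05, 2 of them with Trbv16. Limma called 8 when mice were not blocked and 0 when they were. With a smallest exact p of 0.00794, a call over 240 pairs would need many pairs at that p at once. The lack of calls by the exact test therefore says little about J partners.

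In the tumors Trbj2-7 was joined to 35.0% ± 18.1 of unique productive Trbv16 rearrangements in tumor 1 and 39.3% ± 9.98 in tumor 2 (SD, n = 5). By mouse the values were 52.8%, 10%, 50%, 38.5% and 23.8% in tumor 1 and 44.4%, 43.5%, 25%, 50% and 33.3% in tumor 2, which overlap with the TdLN. For the other V genes they were 24.1% ± 4.61 and 22.5% ± 5.22. Near copies of GSYEQYF carry Trbj2-7, and without near copies the Trbv16 means were 23.4% ± 12.2 in tumor 1 and 30.4% ± 14.1 in tumor 2.

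**Figure D3:**
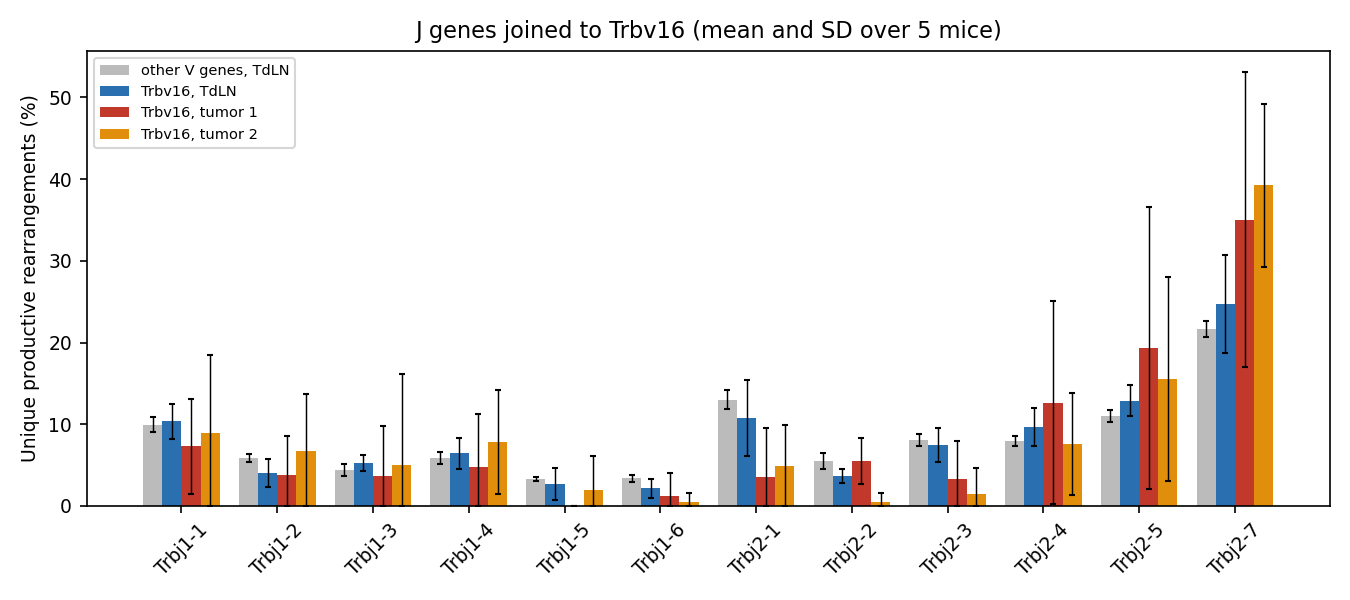
Mean percentage of unique productive rearrangements joined to each of 12 J genes, for other V genes in the TdLN (grey) and Trbv16 in the TdLN (blue), tumor 1 (red) and tumor 2 (orange), with SD bars over 5 mice drawn no lower than 0. Trbj2-7 is the tallest for Trbv16 in every tissue, at 24.7%, 35.0% and 39.3%.

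The CDR3s of Trbv16 were most often 14 residues long in each tissue, with 317 of 1065 unique productive rearrangements in the TdLN (29.8%), 30 of 109 in tumor 1 (27.5%) and 25 of 102 in tumor 2 (24.5%). A second peak stood at 7 residues in the tumors, with 16 rearrangements in tumor 1 (14.7%) and 18 in tumor 2 (17.6%) against 5 in the TdLN (0.47%). CDR3s without the cysteine numbered 15 in tumor 1 of mouse 1, of which 1 was not a near copy, 11 in its tumor 2, of which 1 was not, and 9 in tumor 2 of mouse 2, of which 3 were not. Mean length in bases was 42.2 ± 0.37 for the TdLN, 40.1 ± 4.07 for tumor 1 and 38.4 ± 4.57 for tumor 2, and 42.4 ± 0.54, 41.9 ± 1.73 and 40.7 ± 1.90 without near copies (SD, n = 5). The germline end of Trbv16 reads into CASSL, and this start was seen in 51.0% ± 5.89 of its unique productive rearrangements of the TdLN against 17.7% ± 2.14 of those of other V genes.

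**Figure D4:**
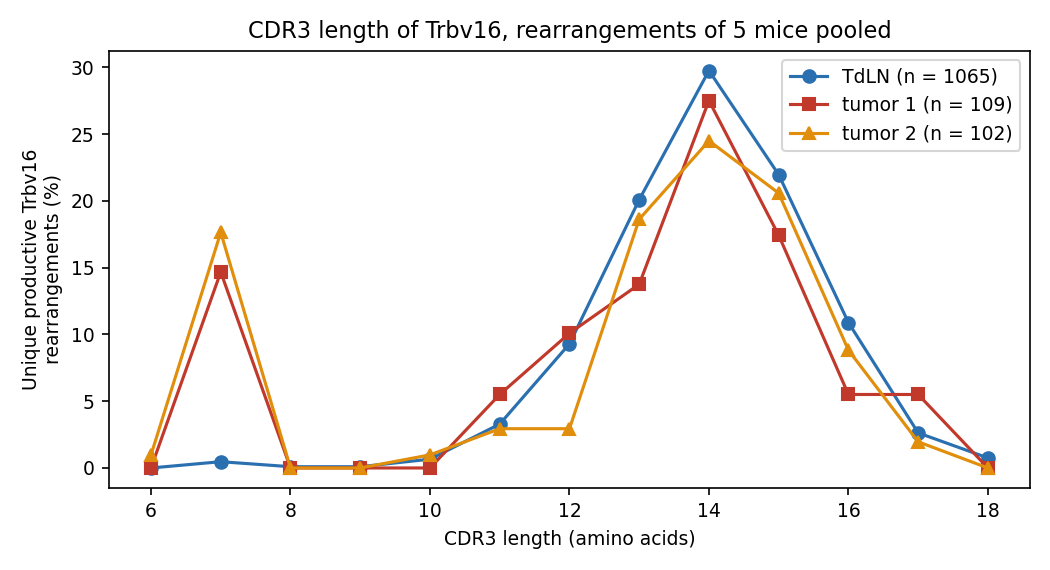
Percentage of unique productive Trbv16 rearrangements by CDR3 length in amino acids for the TdLN (1065), tumor 1 (109) and tumor 2 (102), pooled over 5 mice. All peak at 14 residues, and the tumors have a second peak at 7 residues with 14.7% and 17.6%.

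Trbv16 rearrangements of a tumor were found more often in the TdLN of the same mouse than in those of other mice. In tumor 1, 12 of 36, 5 of 10, 7 of 16, 4 of 26 and 3 of 21 unique productive rearrangements of mice 1 to 5 were also in their own TdLN, which is 33.3%, 50%, 43.8%, 15.4% and 14.3%. The mean of 31.4% ± 16.2 (SD, n = 5) compares with 1.22% over pairings with another mouse (one-sided exact permutation test over all 120 pairings of mice, p = 0.00833, the smallest it can give). Own TdLN exceeded all others in 4 of 5 mice, and mouse 5 had 14.3% with its own and with another. By templates, 97.9%, 78.8%, 54.8%, 56.1% and 36.8% of productive Trbv16 templates of tumor 1 belonged to rearrangements of the own TdLN. Without rearrangements found in another mouse the mean unique overlap was 24.4%, and pairings with another mouse are then 0 by construction. For all other V genes together, with no rearrangements removed, the mean unique overlap was 33.7% ± 16.3 (SD, n = 5). This value is given for scale beside the 31.4% of Trbv16.

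In tumor 2 the overlap was 29.6%, 21.7%, 0%, 50% and 7.14%, resting on 8 of 27, 5 of 23, 0 of 4, 3 of 6 and 3 of 42 rearrangements. The 0 of 4 of mouse 3 has a 95% interval up to 49.0%. The mean was 21.7% ± 19.7 (SD, n = 5) against 1.63% with another mouse's TdLN (one-sided exact permutation, p = 0.00833), and the other V genes had 14.2% ± 10.6. Without rearrangements found in another mouse the mean was 19.1%. Template overlap placed tumor 2 of mouse 2 apart, since 3.03% of its productive Trbv16 templates were in its own TdLN and 91.2% in the TdLN of another mouse, most of them GSYEQYF. Non-productive Trbv16 rearrangements, which carry no receptor, gave overlaps of 33.7% ± 27.7 in tumor 1 and 17.8% ± 12.5 in tumor 2 (SD, n = 5), each with p = 0.00833 by the same exact permutation. In tumor 2 the own TdLN was highest in 3 of 5 mice, and mouse 2 had 16.7% with its own and 27.8% with another. Out-of-frame near copies of GSYEQYF, itself listed as productive, were 22 of these 35 rearrangements in tumor 1 of mouse 1. In its tumor 2 they were 16 of 26, so the set is not separate from productive rearrangements.

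**Figure D5:**
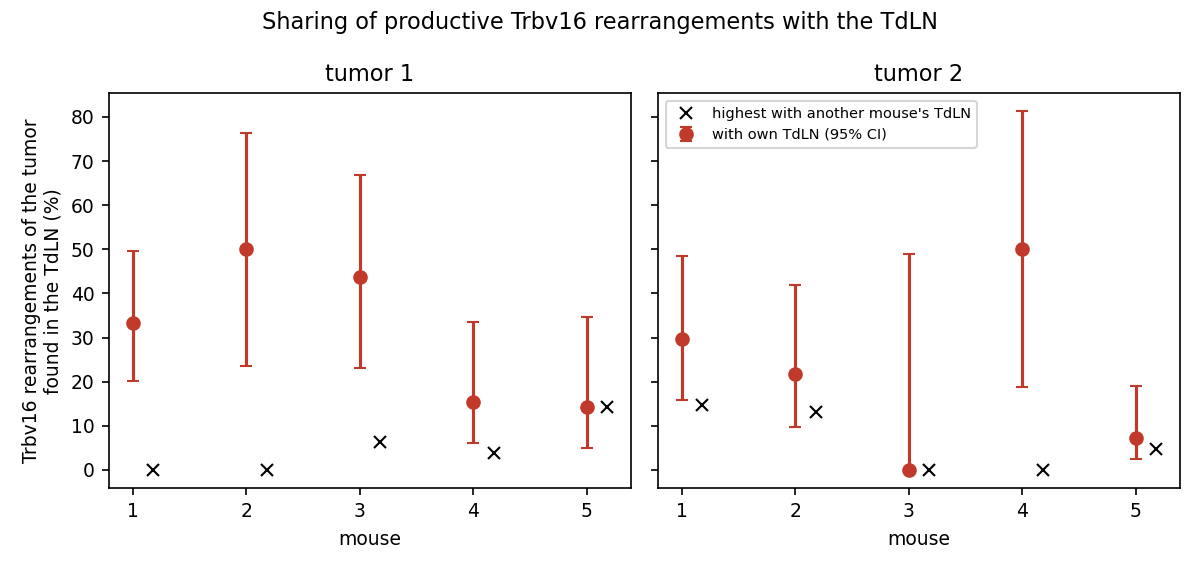
Percentage of unique productive Trbv16 rearrangements of tumor 1 (left) and tumor 2 (right) that were found in the TdLN of the same mouse (red, with 95% Wilson intervals) and the highest value with the TdLN of another mouse (crosses), by mouse. In tumor 1 the own TdLN gives 14.3% to 50% and another TdLN at most 14.3%.

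Of the rearrangements with at least 1% of the productive templates of a sample, GSYEQYF included, Trbv16 gave 3 of 21 in the TdLN (14.3%), 7 of 53 in tumor 1 (13.2%) and 6 of 68 in tumor 2 (8.82%). Without counting GSYEQYF, Trbv16 gave 2, 6 and 4. In tumor 1 of mouse 4 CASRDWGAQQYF (Trbj2-7) had 385 of 5305 productive templates (7.26%), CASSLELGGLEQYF (Trbj2-7) 302 (5.69%) and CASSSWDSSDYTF (Trbj1-2) 191 (3.60%). The first was not found in the TdLN of mouse 4, where the others had 5 and 2 of 8728 templates. In tumor 2 of mouse 4 they had 20, 4 and 1 of 238 templates, and in tumor 1 of mouse 5 18, 11 and 3 of 3601. The same nucleotide sequences thus stood in 2 mice. In tumor 2 of mouse 5 a 15-residue CDR3 with Trbj1-5 had 37 of 2068 templates (1.79%). The largest productive Trbv16 rearrangement was small in the TdLN of mouse 5, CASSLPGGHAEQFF with 8 of 9105 templates, and in tumor 2 of mouse 3, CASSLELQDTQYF with 3 of 3855.

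The CDR3 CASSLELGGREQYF was found in 4 of 5 mice, the most of 1028 distinct productive Trbv16 CDR3s that begin with C, of which 27 were in at least 2 mice. It was listed in 9 nucleotide sequences with 3 different CDR3-coding stretches, each shown above by the sequence with most templates. The first had 37 templates in the TdLN of mouse 2 (1.14%), 12 in its tumor 1 (0.29%) and 2 in its tumor 2. The second had 47 in the TdLN (1.19%) and 54 in tumor 1 (1.36%) of mouse 3. The third had 13 templates in the TdLN of mouse 4, 3 in the TdLN of mouse 5 and 33 in tumor 2 of mouse 5 (1.60%). Mice 2 and 3 thus carried the same CDR3 from nucleotide sequences found in no other mouse, while mice 4 and 5 shared theirs. The CDR3s next in number of mice were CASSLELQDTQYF (Trbj2-5), with 16 templates in 3 mice, and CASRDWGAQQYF in 2 mice.

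Several of the largest Trbv16 CDR3s had the form CASSL, 2 residues, GG, 1 residue, EQYF, all with Trbj2-7. This form was chosen after its members were seen, so its counts are a description. It was met in 17 CDR3s, 4 of them in tumors: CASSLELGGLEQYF with 322 tumor templates, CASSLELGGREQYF with 104, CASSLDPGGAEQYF with 57 and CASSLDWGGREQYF with 38. All 17 together held 0%, 0.29%, 2.77%, 5.77% and 1.36% of productive templates in tumor 1 of mice 1 to 5. In tumor 2 the shares were 0%, 0.06%, 0.05%, 2.10% and 1.69%, and in the TdLN 0%, 1.23%, 1.40%, 0.38% and 0.27%. Every sample of mice 2 to 5 held such a CDR3 with Trbv16 and no sample of mouse 1 did. In tumor 1 of mouse 1, 0 of 6137 productive templates allows up to 0.049%. Other V genes also had 14-residue CDR3s that begin with C and end in GG, 1 residue and EQYF, a wider form. Mouse 1 had 12, 1 and 2 of these rearrangements in the TdLN, tumor 1 and tumor 2. They held 1.93% ± 0.37, 0.27% ± 0.38 and 0.79% ± 1.07 of productive templates in the 3 tissues (SD, n = 5). Among productive Trbv16 templates, the CASSL form took 35.5% ± 23.9 in tumor 1, 14.1% ± 13.3 in tumor 2 and 9.63% ± 9.31 in the TdLN (SD, n = 5). The values of the tissues overlapped. Without rearrangements found in another mouse, the form held 4 templates in tumor 1 of mouse 4 in place of 306, and 110 in tumor 1 of mouse 3 as before. In tumor 2 the form then held 1 template in place of 35 in mouse 5 and 1 in place of 5 in mouse 4. Mice 2 and 3 kept their 2 templates each in tumor 2. In the TdLN of mouse 4 the form held 14 in place of 33. In tumor 1 of mouse 3, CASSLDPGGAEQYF had 54 of 3974 templates (1.36%) and was not in the TdLN, and in tumor 1 of mouse 5 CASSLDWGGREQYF had 37 of 3601 (1.03%) with 3 in the TdLN.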

How the data were processed

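Per the labels, all samples are genomic DNA of sorted cells from TdLN, right tumor (tumor 1) and left tumor (tumor 2) of control animals, and the labels name mm10 as genome build. The immunoSEQ provider amplified, sequenced and corrected the rearrangements and assigned genes and reading frame; software versions are not given in the sources used here. The deposited counts are templates per 87-base rearrangement and were not normalized. A deposited fraction, relative to the whole sample, was not used. The columns for CDR3 length, bases trimmed and N insertions were used as deposited.

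Members were rearrangements assigned TCRBV16-01. The member, lists and tests were chosen with earlier results of these data known. All 49 V and J names of the files matched GENCODE symbols. Shares of a sample carry 95% Wilson intervals, and 3 templates bound a count of 0; both cover counting error only. Named rearrangements are the largest productive one of each sample, those with at least 1% of a sample's productive templates, the largest non-productive one and the 3 CDR3s found in most mice; V and J genes were named by rank and by likeness. Samples of the same number in the labels were taken as the same mouse. Deviations of V gene shares from the tissue mean correlated between r = -0.36 and 0.50 across tissues of a mouse. These values have both signs and were not compared with those between mice, so they do not decide the pairing. Nothing separates animal from sample handling, so p-values of the junction and J gene tests set differences against the spread between these samples. The overlap p-values measure how far samples of the same number match. The exact tests were checked on simulated data. Alternatives were limma with and without the mouse as a block, template weights, other minimums and filters, each mouse left out and the groups of mice by name style. The removal of near copies by edits, and the counts of the GG form without rearrangements of another mouse and of large rearrangements without GSYEQYF, were chosen after seeing the data. Python 3.11.15, numpy 2.4.6, pandas 2.3.3, scipy 1.17.1, matplotlib 3.10.9, edlib 1.3.9.post1, R 4.3.3 and limma 3.58.1 were used.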

Additional observations from a re-analysis of the deposited data

Results flagged for a closer look

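In 35 sets of 5 mice, a value was marked when the gap to its nearest neighbour exceeded 0.71 of the range of the set, which chance gives in about 1 of 20 sets. This marked 5 values, all the highest of their set and all of mouse 1. In the TdLN, Trbv16 held 15.2% of productive templates, where the next mouse had 7.46%, and 5.21% of its unique productive Trbv16 CDR3s did not begin with C, where the next had 0.89%. In tumor 1, 41.7% of unique productive Trbv16 CDR3s did not begin with C, where the next mouse had 10%, and 12.25 bases were trimmed from the V end on average, where the next had 3.90. Trbv16 also took 11.9% of non-productive templates of tumor 1 in mouse 1, where the next mouse had 3.76%.

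The template shares belong to the measure on which the gene was selected, so their marks are a description. Each of the 5 values includes GSYEQYF or its near copies, so they are not separate cases and their number cannot be read against the chance rate. GSYEQYF held 96.4% of the productive Trbv16 templates of tumor 1 of mouse 1. Without near copies, Trbv16 held 8.50% of the non-productive templates of that sample.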

How the results depend on the processing

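Of 175 recomputed values, 172 kept their direction or moved by less than the spread between mice, and stayed on their side of the threshold. This rule is wide, so the count does not measure how stable the values are. The template share of tumor 1, 15.2% ± 20.5, counted as kept at 5.79% without CDR3s that do not begin with C. The overlap of tumor 1 with the TdLN counted as kept at 64.9% by templates against 31.4%, since only its p was compared. Weighting by templates turned the difference in CDR3 length from 0.14 to -2.80 bases and it was not called either way. GSYEQYF, with 21 bases, held 71.4% of the productive Trbv16 templates of the TdLN of mouse 1, and the cause of the turn was not tested. Leaving out a mouse gave differences in V end trimming of 0.23 to 0.68 bases, called only without mouse 3. The overlap of tumor 1 with the TdLN was 14.8% in mice 4 and 5 alone, and the cause was not tested. With the mouse as a replicate block, limma gave adjusted p-values for Trbv16 of 0.0524 for V end trimming, 0.503 for CDR3 length, 0.627 for N insertions, 0.466 for the productive share and 0.405 for CDR3s without cysteine, and the block changed no call of Trbv16.

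Counts over all 20 V genes moved by more than 1.5 times for CDR3 length (8 calls, 0 weighted by templates and 4 with at least 2 templates), V end trimming (15, 8 weighted), productive share (9, 4 weighted) and CDR3s without cysteine (7, 0 with at least 2 templates). With a mouse left out, CDR3 length, productive share and CDR3s without cysteine had 0 calls, where the smallest p of 4 against 4 values is 0.0286. Removing rearrangements found in another mouse sets all overlaps between mice to 0, so the overlaps of 24.4% and 19.1% with the own TdLN are values without a test. Few rearrangements per tumor sample, 4 in the smallest, limit every tumor value.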

Other observations

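In mouse 1 the ratio of templates in tumor 1 to templates in tumor 2 was alike for the 6 rearrangements with most templates in tumor 1. GSYEQYF had 2.21 times as many in tumor 1, and the others, a Trbv3, a Trbv5, a Trbv2, a Trbv31 and an out-of-frame Trbv29 rearrangement, had 2.05 to 2.59 times as many. The samples differed in depth, with 6885 templates in all in tumor 1 and 4892 in tumor 2. Picking by templates in tumor 1 favours high ratios. For GSYEQYF the TdLN held 409 templates, and for the others 9 to 129.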
